A study of Mus musculus with 12 samples.

Results

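The 4 mature miRNAs described are the paired arms of 2 hairpins, mmu-miR-124-3p and mmu-miR-124-5p, and mmu-miR-9-5p and mmu-miR-9-3p. They were taken by name from the 1374 mature miRNAs listed in at least 1 library. Small RNA (18-30 nt) was sequenced from the medial prefrontal cortex of adult male C57BL/6 mice in 12 libraries, 3 for each of 4 groups, and each library was made from the pooled RNA of a pair of animals. All mice went through conditioned place preference (CPP), a test of learned preference for a drug-paired compartment, and the tissue was taken 2 h after the day 10 test. SS mice received saline throughout (saline+saline), CS mice received cocaine with saline (cocaine+saline), MS mice received l-methionine with saline (MET+saline) and MC mice received both (MET+cocaine). Methionine was given under the skin at 1 g/kg 2 times a day for 10 days according to the labels, while another passage of the study gives a lower dose. Levels are given as CPM, the count divided by the library total and multiplied by 1000000, which equals the deposited TPM, and as kCPM for CPM divided by 1000. A miRNA read covers its whole molecule, so no division by length was made.

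A miRNA hairpin is cut into a duplex of 2 short strands, of which 1, the major arm, is usually loaded into the Argonaute silencing complex and kept, while the other is mostly degraded. The loaded arm finds messenger RNAs by its seed, bases 2 to 8. miR-124 is the classical miRNA of differentiated neurons and represses many genes of non-neuronal cells. miR-9 acts in neural progenitors and in neurons and is known for the use of both arms, miR-9-5p against the neuronal gene silencer REST and miR-9-3p against its partner CoREST.

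The mature sequences of miR-9 (RefSeq, GRCm38) are shown because the comparison of its arms carries the main result, with the seed in capitals. The names of 2 of the 4 members were matched in that table.
mmu-miR-9-5p: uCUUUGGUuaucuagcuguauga
mmu-miR-9-3p: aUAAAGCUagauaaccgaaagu
The arms have different seeds, CUUUGGU and UAAAGCU, so they pair with different target sites. No other mature mouse miRNA in the table that is listed in the files had either seed. The 3 hairpins that encode them are shown with the arms in capitals.
Mir9-1: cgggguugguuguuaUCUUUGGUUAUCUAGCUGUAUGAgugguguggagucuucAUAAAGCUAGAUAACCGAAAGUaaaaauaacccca
Mir9-2: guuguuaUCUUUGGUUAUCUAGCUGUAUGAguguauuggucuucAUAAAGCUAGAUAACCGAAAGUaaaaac
Mir9-3: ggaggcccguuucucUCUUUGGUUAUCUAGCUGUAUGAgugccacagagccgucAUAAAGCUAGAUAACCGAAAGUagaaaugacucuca
Both arms were identical in the 3 hairpins, and the bases between the arms (16, 14 and 16 nt) and the flanks differed. A read of either arm therefore cannot be assigned to a locus.

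In GRCm38, the assembly also called mm10, Mir9-1 lies at chr3:88215598-88215686 in an intron of the long non-coding gene Gm3764, Mir9-2 at chr13:83738814-83738885 in an exon of C130071C03Rik, and Mir9-3 at chr7:79505264-79505353 in an intron of Mir9-3hg. miR-124 is also encoded at 3 loci. Mir124a-1 lies at chr14:64590657-64590741 in an exon of Mir124a-1hg, Mir124a-2 at chr3:17795662-17795770 partly in an exon of Mir124-2hg, and Mir124a-3 at chr2:180894040-180894107 partly in an exon of Gm27032. All 6 hairpins and their hosts are on the plus strand.

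Library totals were 7.77 to 11.1 M counts (M for 1000000), of which 56.1% to 67.9% fell on mature and predicted miRNAs, and a count of 0 would have allowed up to 0.271 to 0.386 CPM (3 counts, counting error only). Library MC 16 stood apart: it had the lowest miRNA percentage, 56.1%, and the lowest TMM factor, 0.675, against 0.826 to 1.26 in the other 11 libraries. Clustering of the miRNA precursor families, without those of miR-124 and miR-9, placed the libraries in 3 sets that cross the groups (set A with SS 12, CS 8 and CS 9, set B with SS 13, SS 14, MS 3, MS 4, MS 23 and MC 20, set C with CS 10, MC 16 and MC 17). The labels do not say what the sets are. No 2 libraries were duplicates. All 12 miRNAs of a neuron-enriched list were counted in every library.

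miR-124-3p was the most abundant miRNA in 7 of 12 libraries, with a mean of 103 kCPM. In SS its level was 165, 176 and 70.3 kCPM in libraries 12, 13 and 14. In CS it was 30.0, 149 and 154 kCPM in libraries 8, 9 and 10. In MS it was 168, 35.6 and 172 kCPM in libraries 3, 4 and 23, and in MC it was 46.3, 38.7 and 33.2 kCPM in libraries 16, 17 and 20. The 12 values thus lay either at 30.0 to 70.3 or at 149 to 176 kCPM, with nothing between, and each of SS, CS and MS held 1 low and 2 high libraries while all 3 MC libraries were low. Low and high libraries occurred in each of the 3 sets. Across the 68 miRNAs with a mean of at least 1000 CPM, the SD of log2 CPM over the 12 libraries was 1.09 for miR-124-3p, which ranked 2, against a median of 0.456. The group means ran from 137 ± 58.3 kCPM for SS through 125 ± 77.6 for MS and 111 ± 70.2 for CS to 39.4 ± 6.61 for MC (SD, n = 3), and each neighbouring pair in this order overlapped.

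**Figure D1:**
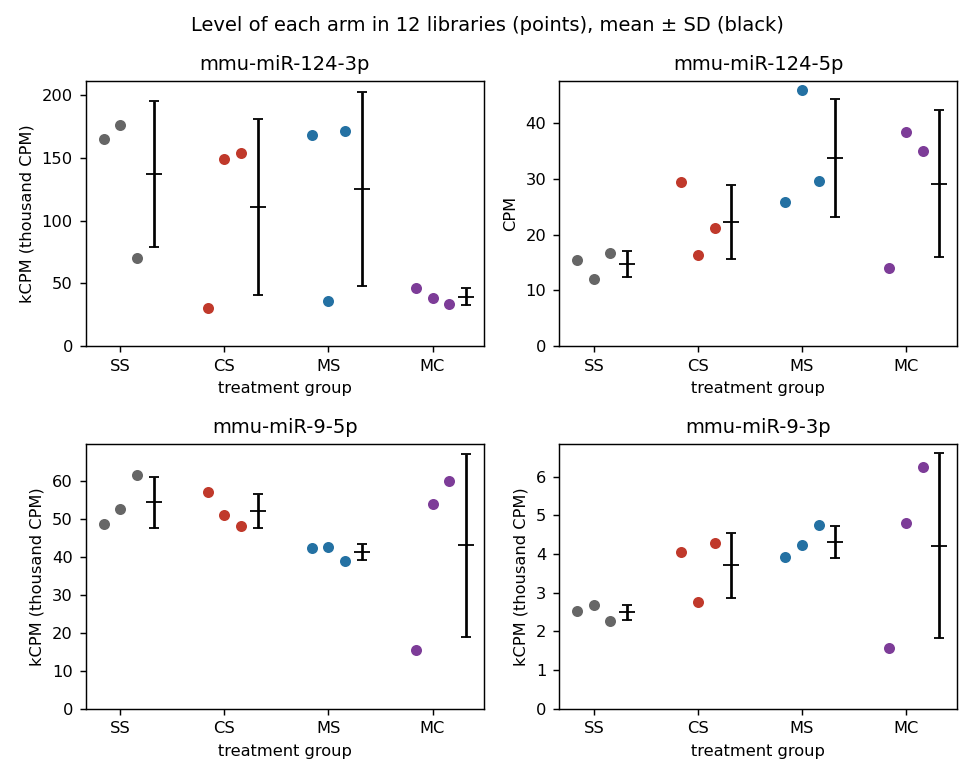
CPM of the 4 miRNA arms in the groups SS, CS, MS and MC, with 1 point a library and the mean ± SD (n = 3) in black beside the points. miR-124-3p is at 33.2 to 46.3 kCPM in all 3 MC libraries and in both a low and a high range elsewhere, and MC 16 is the lowest library for miR-9-5p and miR-9-3p.

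Reads were also deposited under a row for the miR-124 precursor family, an Rfam family of hairpins, and how reads were divided between that row and the mature arms is not given in the sources used here. The family row held 53.1, 46.1 and 42.3 kCPM in SS and 41.7, 46.3 and 54.7 kCPM in CS. It held 57.3, 62.3 and 67.7 kCPM in MS and 63.3, 62.3 and 53.0 kCPM in MC. The whole range was 1.63-fold, against 5.88-fold for miR-124-3p, and it did not separate the libraries in the same way. In the family row all 3 MS libraries lay above all 3 SS libraries. The percentage of counts on all precursor families did the same, at 14.3% to 15.8% in MS and 11.3% to 12.4% in SS. Of the 6 libraries low in miR-124-3p, CS 8 and SS 14 held the least of the family row, while MS 4 and the 3 MC libraries were at 53.0 to 63.3 kCPM. The ratio of miR-124-3p to the family was 0.571 to 0.732 in the 3 MC libraries, MS 4 and CS 8, 1.66 in SS 14 and 2.53 to 3.82 in the other 6. The test among groups, added after the values were seen, was not passed (F = 2.53, exact permutation p = 0.145 over 369600 groupings, n = 3).

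**Figure D2:**
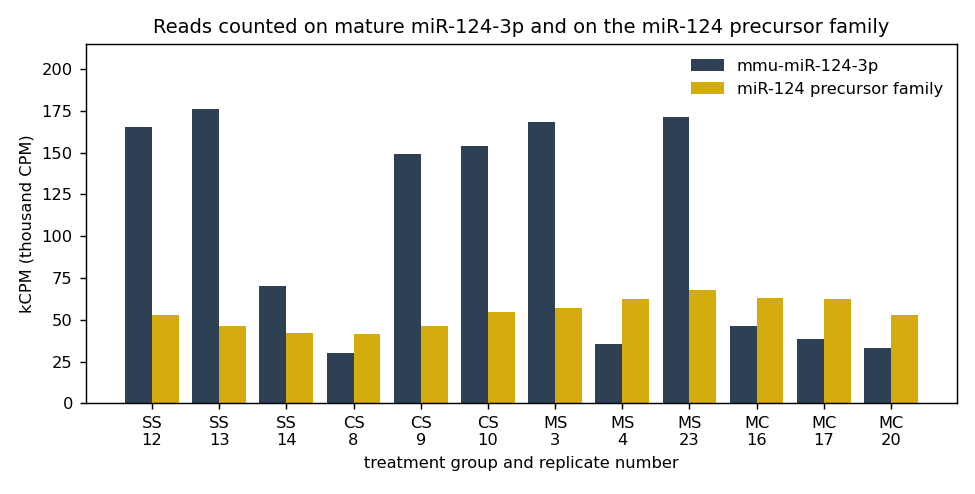
Bars give kCPM of miR-124-3p and of the miR-124 precursor family in each of the 12 libraries, ordered by group and replicate number. The family bars range from 41.7 to 67.7 kCPM while the miR-124-3p bars range from 30.0 to 176 kCPM.

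miR-124-5p, the minor arm, was counted 109 to 459 times a library and ranked 232 to 306 among miRNAs. It was at 15.4, 12.1 and 16.6 CPM in SS and at 29.4, 16.3 and 21.1 CPM in CS. It was at 25.9, 45.8 and 29.6 CPM in MS and at 14.0, 38.4 and 35.0 CPM in MC. All 3 MS libraries lay above all 3 SS libraries on plain CPM, where the share of all miRNAs without overlap was not counted. On the same scale MC 16 was the single methionine library within the SS range. On the TMM scale it was at 20.8 CPM, above the SS libraries at 14.6 to 17.2 CPM. The exact 95% Poisson interval was 14.3 to 19.2 CPM for the highest SS library and 23.0 to 29.1 CPM for the lowest MS library, and these intervals cover counting error only. The means were 33.8 ± 10.6 CPM in MS, 29.1 ± 13.2 in MC, 22.3 ± 6.61 in CS and 14.7 ± 2.37 in SS (SD, n = 3), and neighbours in this order overlapped.

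miR-9-5p, the major arm of miR-9, ranked 1 or 2 in 11 libraries and 11 in MC 16. It was at 48.7, 52.6 and 61.6 kCPM in SS and at 56.9, 51.1 and 48.1 kCPM in CS. It was at 42.2, 42.7 and 38.8 kCPM in MS and at 15.4, 53.8 and 59.9 kCPM in MC. Every MS library lay below every SS and CS library on plain CPM, where the share of all miRNAs without overlap was not counted. For miR-9-5p MC spanned from the lowest value of all to nearly the highest. The means were 54.3 ± 6.61 kCPM in SS, 52.0 ± 4.49 in CS, 43.0 ± 24.1 in MC and 41.2 ± 2.14 in MS (SD, n = 3), and neighbours in this order overlapped.

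miR-9-3p, the second arm, was at 2521, 2670 and 2276 CPM in SS and at 4061, 2753 and 4291 CPM in CS. It was at 3928, 4234 and 4748 CPM in MS and at 1581, 4788 and 6252 CPM in MC. SS lay below CS and MS without overlap on plain CPM, where the share of all miRNAs without overlap was not counted. The lowest and highest libraries of miR-9-3p, MC 16 and MC 20, were both in MC. The means were 4303 ± 414 CPM in MS, 4207 ± 2389 in MC, 3702 ± 830 in CS and 2489 ± 199 in SS (SD, n = 3). The neighbours MS, MC and CS overlapped, and on the TMM scale CS and SS did too (2640 to 4567 and 2356 to 3232 CPM). The miR-9 precursor family was at 4.02 kCPM in MC 16 and at 12.5 to 20.8 kCPM in the other 11 libraries, so both arms and the family were low together in that library.

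Cocaine without methionine (CS vs SS) showed no called change in any arm. The log2 fold change was -0.50 ± 0.74 for miR-124-3p, 0.33 ± 0.28 for miR-124-5p, -0.32 ± 0.25 for miR-9-5p and 0.32 ± 0.31 for miR-9-3p (± SE, edgeR quasi-likelihood test, adjusted p = 0.994 for each). The estimate for miR-124-3p rested on single libraries, at -0.027 without CS 8 and -0.94 without CS 10, and it was -0.97 with library set as covariate. No miRNA of 780 tested was called (0%), 22 had an unadjusted p under 0.05 (2.82%) and DESeq2 called 0. On the TMM scale miR-9-5p was at 45.1 to 51.2 kCPM in CS and at 53.8 to 63.8 kCPM in SS, which did not overlap, as for 5.38% of all miRNAs in the lower direction. On plain CPM the same libraries did overlap.

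Methionine without cocaine (MS vs SS) gave the largest differences of the 4 comparisons in 3 of the 4 arms, and they went in opposite directions within miR-9. The log2 fold change of miR-124-5p was 0.94 ± 0.28, which is 1.92-fold (edgeR unadjusted p = 0.0061, adjusted p = 0.315). That of miR-9-5p was -0.64 ± 0.25, to 0.642 of the SS level (edgeR unadjusted p = 0.0278, adjusted p = 0.457). That of miR-9-3p was 0.54 ± 0.31 (adjusted p = 0.605, edgeR) and that of miR-124-3p was -0.35 ± 0.74 (adjusted p = 0.936, edgeR). None of the 4 passed the test, and none of the 780 miRNAs did (0%), with 75 at an unadjusted p under 0.05 (9.62%). DESeq2 called 13 miRNAs (1.67%), with miR-124-5p among them (log2 fold change 0.92, DESeq2 adjusted p = 0.0441). On the TMM scale MS lay above SS for miR-124-5p and miR-9-3p, as for 12.8% of all miRNAs, and below SS for miR-9-5p, as for 10.6%. Within library set B, which held 2 SS and all 3 MS libraries, the log2 fold change of miR-9-5p was -0.69 (edgeR adjusted p = 0.0474, 8 of 729 miRNAs called) and that of miR-124-5p was 0.99 (edgeR adjusted p = 0.136). The fit within set B was added after the data were seen. In the planned fit with library set as covariate miR-9-5p differed by -0.77 and miR-124-5p by 0.92 (edgeR adjusted p = 0.552 for each). By DESeq2 miR-9-5p differed by -0.66 (DESeq2 adjusted p = 0.287). Without MS 4 the estimate for miR-124-3p was 0.11, of the opposite sign.

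Methionine on top of cocaine (MC vs CS) showed no called change. The log2 fold change of miR-124-3p was -1.35 ± 0.75 (edgeR adjusted p = 0.577) and the other 3 arms lay between -0.28 and 0.44. The count called was 0 of 780 (0%), with 58 at an unadjusted p under 0.05 (7.44%) and 0 by DESeq2. Without MC 16 the log2 fold change of miR-9-5p was 0.02 and that of miR-124-3p was -1.84 (edgeR adjusted p = 0.635), and without MC 20 that of miR-9-3p was -0.11.

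Cocaine on top of methionine (MC vs MS) likewise showed none. miR-124-3p differed by -1.50 ± 0.76 on the log2 scale (edgeR unadjusted p = 0.0717, adjusted p = 0.576) and the other arms by -0.17 to 0.04, whose signs changed with single libraries. For miR-124-3p the difference was -2.22 with library set as covariate and -2.09 within set B (edgeR adjusted p = 1.0 and 0.965). Of 780 miRNAs 0 were called (0%), 65 had an unadjusted p under 0.05 (8.33%) and DESeq2 called 0. No arm passed the test of the interaction term, the cocaine contrast with methionine minus that without (log2 -0.998 ± 1.05 for miR-124-3p, 0.36 ± 0.36 for miR-9-5p, -0.37 ± 0.44 for miR-9-3p and -0.50 ± 0.39 for miR-124-5p, edgeR adjusted p from 0.81 to 0.869). No miRNA was called there (0%, with 34 or 4.36% at an unadjusted p under 0.05, and 0 by DESeq2). The comparisons MS vs SS and CS vs SS share the SS libraries.

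**Figure D3:**
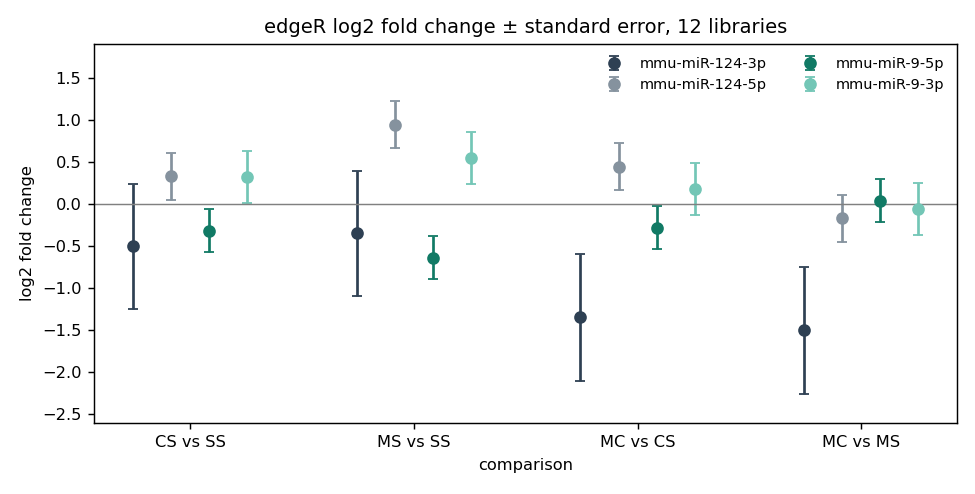
Log2 fold change (points) of the 4 arms in the 4 comparisons, from the edgeR fit of 12 libraries, with a standard error derived from the F value (bars). In MS vs SS the arms miR-124-5p (0.94) and miR-9-5p (-0.64) lie on opposite sides of 0, and miR-124-3p has the widest bars in each comparison.

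The balance between the arms of miR-9 was compared inside each library, where library scaling cancels. The ratio of miR-9-5p to miR-9-3p was 19.3, 19.7 and 27.1 in SS and 14.0, 18.6 and 11.2 in CS. It was 10.8, 10.1 and 8.16 in MS and 9.73, 11.2 and 9.58 in MC. All SS libraries lay above all others, the MS and MC libraries lay together at 8.16 to 11.2, and of the CS libraries 2 lay between and CS 10 lay just within the methionine range. The means were 22.0 ± 4.37 in SS, 14.6 ± 3.71 in CS, 10.2 ± 0.909 in MC and 9.66 ± 1.34 in MS (SD, n = 3). The ratio differed among the groups (F = 13.3, exact permutation p = 0.00104, and 0.00312 adjusted over the 3 ratios planned). The adjustment does not cover the choice of the members. Neither this test nor the methionine contrast below was run over all 220 hairpins with both arms measured, so the share that passes is not known. MS lay below SS without overlap in 15.0% of these hairpins and CS below SS in 7.27%. Library MC 16, low in both arms, had a ratio of 9.73, inside the range of the other methionine libraries.

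Against SS the ratio was 0.657-fold in CS and 0.441-fold in MS, without overlap in either case (exact permutation p = 0.1 for each, two-sided, the smallest that 3 libraries against 3 allow). MC was 0.711-fold of CS (exact permutation p = 0.2) and 1.06-fold of MS (exact permutation p = 0.7), and the libraries of both pairs overlapped. The 6 libraries with methionine were compared with the 6 without after the values were seen. Their difference was -0.84 on the log2 scale, or 0.56-fold (exact permutation p = 0.00433 over 924 splits, and 0.0433 adjusted over the 10 contrasts of this kind). The ranges overlapped, since CS 10 lay slightly below MC 17, both at 11.2 when rounded. Leaving out any 1 library gave -0.97 to -0.71 with exact permutation p from 0.00216, the smallest possible, to 0.00649. The cocaine contrast of the same ratio, CS and MC against SS and MS, was -0.26 (exact permutation p = 0.409). In both contrasts libraries were permuted without regard to the other treatment. The spread behind the cocaine p thus includes the difference between SS and MS, and this p does not show that cocaine made no difference. On the log2 scale CS differed from SS by -0.61 and MC from MS by 0.08.

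Library set and methionine were partly aligned, as set A held no methionine library. Within set B the 4 methionine libraries differed from the 2 SS libraries by -1.27 on the log2 scale (exact permutation p = 0.0667, the smallest 15 splits allow), with 8.16 to 10.8 against 19.7 and 27.1. Within set C CS 10 (11.2) lay with MC 16 (9.73) and MC 17 (11.2). The lower methionine ratio was thus seen within set B and not within set C, which held a single library without methionine.

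**Figure D4:**
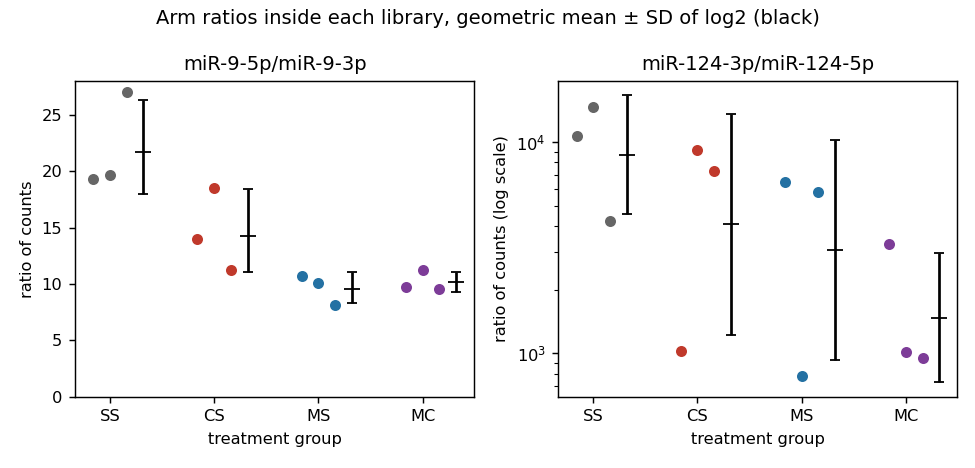
Ratio of counts of the 2 arms in each library (points) with the geometric mean ± SD of log2 (black), for miR-9 on a linear axis and for miR-124 on a log axis. The miR-9 ratio is 19.3 to 27.1 in SS and 8.16 to 11.2 in MS and MC, while the miR-124 ratio spans 775 to 14632 and overlaps between all pairs of groups except SS and MC. The share of all hairpins apart between SS and MC was not counted.

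The arms of miR-124 were far less balanced. miR-124-3p outnumbered miR-124-5p by 775 to 14632 times, with means of 9857 ± 5253 for SS, 5812 ± 4251 for CS, 4353 ± 3119 for MS and 1754 ± 1342 for MC (SD, n = 3). Every MC library lay below every SS library, the other pairs of groups overlapped, and the test among the 4 groups was not passed (F = 1.72, exact permutation p = 0.218). The share of all hairpins with MC below SS without overlap was not counted. For MS below SS it was 15.0% of 220 hairpins. The methionine contrast was -1.49 on the log2 scale (exact permutation p = 0.0823), and -1.998 without CS 8 (exact permutation p = 0.026). The ratio of miR-9-5p to miR-124-3p ran from 0.226 to 1.898 with no difference among groups beyond the spread (F = 0.571, exact permutation p = 0.627). That of miR-9-5p to the miR-9 family ran from 2.44 to 3.97 (F = 1.20, exact permutation p = 0.369), a narrow range beside that of miR-124-3p to its family.

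The same arm ratio, major over minor, was available for 220 hairpins. The miR-124 ratio ranked 3 among them, with a mean log2 of 11.8, and that of miR-9 ranked 110, with 3.72 against a median of 3.70. In MS vs SS the log2 change was -1.18 for miR-9 and -1.50 for miR-124, which ranked 21 and 11 from the lowest, against a median of -0.07 over all hairpins. Groups did not overlap, with MS lower, in 33 hairpins (15.0%) including miR-9, and with MS higher in 18 (8.18%). In CS vs SS the lower count was 16 (7.27%), again with miR-9. Among the 18 hairpins whose minor arm had a mean of at least 1000 counts, a limit set after the values were seen, miR-9 had the most minor-arm counts and ranked 2 from the lowest. There the change was below 0 in 7 hairpins, and MS lay apart from SS lower in 4 and higher in 5. Separation of MS from SS thus occurred in both directions among well counted hairpins.

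**Figure D5:**
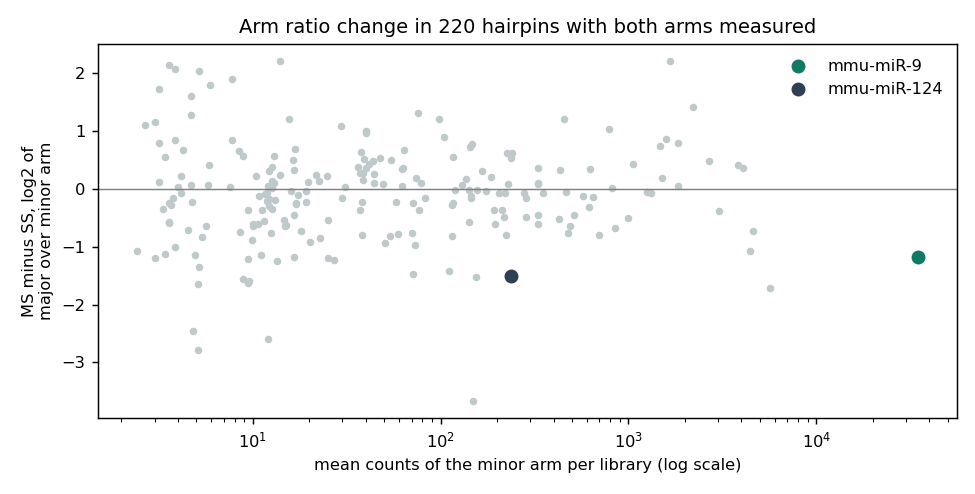
MS minus SS difference of log2 major over minor arm (vertical axis) against the mean counts of the minor arm per library (horizontal log axis) in 220 hairpins, with miR-9 and miR-124 marked. miR-9, at -1.18, has the highest minor-arm count of all, and miR-124 lies at -1.50.

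As a percentage of all miRNA counts, miR-124-3p held 20.9% ± 8.82 of the SS, 17.6% ± 11.2 of the CS, 19.5% ± 11.7 of the MS and 6.75% ± 1.37 of the MC libraries (SD, n = 3). miR-9-5p held 8.27% ± 0.979, 8.24% ± 0.713, 6.55% ± 0.559 and 7.24% ± 3.94 in the same order. miR-9-3p held 0.379% ± 0.0276, 0.590% ± 0.152, 0.684% ± 0.0782 and 0.709% ± 0.393, and its MC libraries spanned 0.282% to 1.05%. None of the 4 shares passed the test among groups (exact permutation p = 0.333 for miR-124-3p, 0.134 for miR-124-5p, 0.742 for miR-9-5p and 0.314 for miR-9-3p). Without library MC 16 the exact permutation p was 0.0024 for miR-9-3p, 0.0257 for miR-9-5p, 0.0412 for miR-124-5p and 0.413 for miR-124-3p. Adjusted over the 4 tests, these permutation values were 0.0096, 0.0514, 0.0549 and 0.413, with that of miR-9-3p alone under 0.05. This adjustment was added after the values were seen and does not cover the choice of the library left out. MC 16 was itself the lowest library for miR-9-3p. Leaving out each library in turn gave an exact permutation p of 0.0024 to 0.493 for that share.

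Neither hairpin had arms that were higher in the same libraries to an extent that passed the test. For miR-124-3p with miR-124-5p Pearson's r was -0.59 (permutation p = 0.0484, adjusted over 3 pairs 0.145) and Spearman's rho -0.52 (permutation p = 0.088) on log2 TMM-scaled CPM. As miR-124-3p fell into a low and a high range, r was also taken within each: -0.71 in the 6 low libraries (exact permutation p = 0.169) and -0.23 in the 6 high ones (exact permutation p = 0.683). Without the 2 libraries farthest from the median, CS 8 and MC 20, r was -0.62. Within set B r was -0.56. For miR-9-5p with miR-9-3p r was 0.09 (permutation p = 0.791) and rho -0.08 (permutation p = 0.817), and r was -0.44 without MC 16. For miR-124-3p with miR-9-5p r was 0.23 (permutation p = 0.496) and rho 0.35 (permutation p = 0.265), with -0.18 in the 6 low and 0.55 in the 6 high libraries (exact permutation p = 0.694 and 0.233).

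The mature miRNAs most like each major arm over the 12 libraries were taken from 344 with a mean of at least 10 CPM, by Pearson's r, as a description of points that share their library and depth. For miR-124-3p they were let-7i-3p (r = 0.88), miR-341-3p (0.88), miR-490-5p (0.85), miR-3085-3p (0.77) and miR-182-5p (0.66). For miR-9-5p they were miR-379-3p (0.97), miR-1193-3p (0.93), let-7f-2-3p (0.91), miR-499-5p (0.91) and miR-99a-5p (0.91). These 5 share with miR-9-5p the low level in MC 16, where miR-99a-5p for example was at 8939 CPM against 21871 to 31575 in the other 11 libraries.

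Other miRNAs enriched in neurons were given from a list of 12, which excludes the 4 arms above. None was called in any comparison. In MS vs SS 4 had a positive and 8 a negative log2 fold change, with a median of -0.23 against -0.03 over all 780 miRNAs. The most abundant were miR-128-3p (21.7 kCPM on average, log2 fold change -0.32), miR-138-5p (21.0 kCPM, -0.19), miR-218-5p (8.28 kCPM, -0.51) and miR-153-3p (4.70 kCPM, 1.18, edgeR adjusted p = 0.386). In MC vs MS the median was 0.11 against 0.05 over all. The list summed to 58.6 to 69.3 kCPM for SS, 54.8 to 77.1 for CS, 59.2 to 68.8 for MS and 53.3 to 75.9 for MC, and all groups overlapped. In bulk tissue fewer cells of a type and less RNA per cell cannot be told apart.

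Summed levels of some marker lists of other cells differed between groups on plain CPM. The red blood cell list (3 of 3 counted in every library, led by miR-451a with 2426 CPM on average) summed to 1496 to 2221 CPM for SS, 2395 to 2677 for CS, 2559 to 3972 for MS and 387 to 3595 for MC. On plain CPM SS was thus lower than CS and MS without overlap, and MC 16 was the lowest library. SS was also apart in the miR-9 arm ratio, and a link was not tested. The share of all miRNAs without overlap on plain CPM was not counted. In the edgeR fit of MS vs SS miR-451a differed by 0.46 ± 0.48, miR-144-3p by 1.71 ± 0.58 and miR-486a-5p by -1.31 ± 0.96 (log2 ± SE). In CS vs SS they differed by 0.14, 0.43 and 1.05. The liver and muscle list (4 of 4 counted, led by miR-122-5p) summed to 43.3 to 85.8 CPM in SS and 108 to 2529 in MS, with the highest value in MS 3. Without MS 3 the log2 fold change of miR-9-5p was -0.69 and that of miR-124-5p was 1.07. The remaining MS libraries, at 108 and 260 CPM for the liver and muscle list, still lay above SS. Leaving out MS 3 thus did not remove the difference in that list, and a link was not tested. The other lists overlapped between MS and SS in summed level. The MS vs SS log2 fold change was positive in 1 of 5 miRNAs of the astrocyte-enriched list (median -0.22, led by miR-24-3p, miR-23a-3p, miR-27a-3p and miR-27b-3p). It was positive in 3 of 4 of the oligodendrocyte list (median 0.18, led by miR-219a-5p and miR-219a-2-3p) and in 4 of 6 of the microglia and leukocyte list (median 0.42, led by miR-150-5p and miR-146a-5p). It was positive in 3 of 4 of the endothelium and vascular wall list (median 0.37, led by miR-126a-3p and miR-143-3p) and in 3 of 4 of the choroid plexus and ependyma list (median 0.30, led by miR-34b-3p and miR-34c-5p). For the red blood cell list it was positive in 2 of 3 (median 0.46) and for the liver and muscle list in 3 of 4 (median 0.39), against -0.03 over all miRNAs. No member of any list was called in any comparison. The part of these cells in the results above was not tested.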

How the data were processed

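The authors removed low-quality reads, adapters and reads under 16 nt, mapped the rest with AASRA and deposited, per library, counts and TPM for each small RNA. The labels name Bowtie and mm10. The deposited TPM is the count divided by the library total, within 0.005 of a recalculation. Samples were grouped by their labels.

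Mature and predicted miRNAs that reached 5 counts in 3 or more libraries (780 of 1422) were tested on their counts with edgeR 4.0.16 (R 4.3.3, TMM within miRNAs, quasi-likelihood test, 12 libraries, Benjamini-Hochberg, called at adjusted p of at most 0.05), checked on simulated counts. The SE given with edgeR values is the absolute log2 fold change divided by the square root of the quasi-likelihood F. DESeq2 1.42.0 was an alternative. Log2 ratios and shares were tested by exact permutation of F among the groups, and contrasts of log2 ratios by exact permutation of the difference in means, two-sided. Correlations over the 12 libraries were tested with 100000 permutations. A pseudocount of 0.5 counts was used in these correlations and in the ratios of the 220 hairpins. The libraries of a group were treated as replicates, and p-values of the comparisons cover the spread between them only. In the methionine and cocaine contrasts of ratios the permutations ignored the other treatment, so their spread also includes its differences. Besides the 4 arms, the text names the most abundant members of each list and the 5 miRNAs most like each major arm. The members and lists were chosen with earlier results of these data known. Other alternatives were other scalings, count filters, a fold limit, library set as a covariate, the 6 libraries of a comparison alone and leaving out each library.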

Additional observations from a re-analysis of the deposited data

How the results depend on the processing

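No paired analysis was made, as the labels describe no pairing of libraries between groups. The edgeR counts of called miRNAs stayed at 0 in CS vs SS, MC vs CS, MC vs MS and the interaction under all alternatives run. In MS vs SS they were 13 by DESeq2, 3 in the fit of the 6 libraries alone and 8 in library set B. Among the 4 groups they were 13 by DESeq2 and 0 to 3 when 1 library was left out, the 3 without MC 16. No arm was called except miR-124-5p in MS vs SS by DESeq2 (0.92) and miR-9-5p in MS vs SS in library set B (-0.69). Scaling without TMM factors moved the median log2 fold change of all miRNAs by 0.27 (library total) and 0.32 (miRNA total) in CS vs SS, by 0.25 and 0.31 in MS vs SS and by -0.33 and -0.29 in the interaction. Against these shifts miR-9-5p in MS vs SS lay at -0.66 to -0.34 over 5 scalings, miR-9-3p at 0.52 to 0.85 and miR-124-5p at 0.92 to 1.27.

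Some uncalled log2 fold changes reversed, and the cause was not tested. For miR-9-3p in MC vs CS it was -0.053 with library set as covariate. For miR-9-3p in MC vs MS it was 0.051 on the miRNA total without TMM, 0.10 with library set as covariate and 0.43 in library set B. Leaving out each library gave, in MS vs SS, -0.70 to 0.11 for miR-124-3p. In MC vs CS it gave -0.49 to 0.024 for miR-9-5p (0.024 without MC 16) and -0.11 to 0.46 for miR-9-3p. In MC vs MS it gave -0.31 to 0.0099 for miR-124-5p, -0.17 to 0.32 for miR-9-5p (-0.011 without MS 4, -0.07 without MC 17, -0.17 without MC 20) and -0.34 to 0.21 for miR-9-3p (0.09 without MS 23, 0.21 without MC 16).

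The exact permutation p among groups for the miR-9 arm ratio was 0.00104 to 0.0194 when 1 library was left out. For the shares the same p was 0.0412 to 0.27 for miR-124-5p, 0.0257 to 0.897 for miR-9-5p and 0.0024 to 0.493 for miR-9-3p. With the miR-124 precursor family added to both miR-124-5p and the total, the exact permutation p was 0.0323. That value mostly describes the family row, at 41.7 to 67.7 kCPM against 12.1 to 45.8 CPM for miR-124-5p. Pearson's r of miR-124-3p with miR-124-5p was -0.72 to -0.50 when 1 library was left out, with permutation p above 0.05 in 8 of 12 cases, and -0.55 without TMM (permutation p = 0.065). For miR-9-5p with miR-9-3p r was -0.44 to 0.31, the first without MC 16. Methionine contrasts added later passed 0.05 when certain libraries were left out: -1.998 for the miR-124 arm ratio (CS 8), -1.45, -1.42 and -1.38 for miR-124-3p over its family (CS 8, MS 3 and MS 23) and -0.26 for miR-9-5p over its family (MC 16). With 3 libraries a group, pairwise exact tests cannot go below 0.1, and the minor arm of miR-124 rests on 109 to 459 counts a library.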
